A study of Mus musculus with 35 samples.

Results

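The R-spondin receptor genes Lgr4, Lgr5 and Lgr6 were followed together with Wnt target genes and Wnt-linked regulators in sorted cells of the mouse mammary gland. The set was given by gene symbol, and chosen with earlier results of these data known, as 10 genes: Lgr4, Lgr5, Lgr6, Axin2, Tcf7, Lef1, Nkd1, Znrf3, Rnf43 and Procr. Of these, 9 were measured among 19937 genes with a symbol of their own, each by 1 probe set. Tcf7 had no probe set carrying its symbol alone and is not used here. The study asked how an early pregnancy alters gene expression in mammary cell subtypes, with 35 samples on 1-colour Affymetrix arrays, 1 array per sample. Parous mice were mated when 42 days old, lactated for 21 days and were taken after 40 days of involution, when the milk-producing tissue regresses. Nulliparous mice were virgins of the same age. Every sample pooled the 4th glands of 5 mice, and replicates are different pools. The subpopulations were basal CD49f-high (CD24+Low Sca1- CD49fHigh), basal CD49f-low (CD24+Low Sca1- CD49fLow), luminal Sca1-negative (CD24+High Sca1-), luminal Sca1-positive (CD24+High Sca1+), total epithelial and stromal cells. Each had 3 parous and 3 nulliparous samples, except that the CD49f-high sort had only 2 parous ones beside its 3 nulliparous ones. Per the labels, the missing parous sample (replicate 1) did not hybridize. Basal CD49f-high samples held 2000 cells and the others 10000, so cell number and this sort gate cannot be told apart. No strain, transgene or drug was named.

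Wnt proteins bind Frizzled receptors with the co-receptors Lrp5 and Lrp6, which spares beta-catenin from a destruction complex and lets it act with TCF/LEF factors in the nucleus. R-spondins bind Lgr4, Lgr5 or Lgr6 and take the ubiquitin ligases Znrf3 and Rnf43 off the cell surface, and since these ligases remove Frizzled, R-spondins raise the response to Wnt. In the mouse mammary gland, Wnt signalling sustains basal cells that can rebuild a gland on transplantation, and Lgr5, Axin2, Lgr6 and Procr have each been used to mark or trace subsets of cells there.

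All values are log2 expression per probe set, so 1 unit is a 2-fold difference, and levels are compared within a gene across samples. Genes with a Benjamini-Hochberg adjusted p under 0.05 in a limma fit of all samples were called. The sorted cells carried the markers of their labels: 8 of 8 basal markers were higher and 8 of 8 pan-luminal markers lower in basal than in luminal cells, and 8 of 8 fibroblast markers were higher in stromal than in total epithelial samples. In Sca1-positive compared with Sca1-negative luminal cells, 5 of 5 measured hormone-sensing markers were higher and 4 of 4 progenitor markers lower. Stromal samples held varying epithelial signal, since the mean level of the pan-luminal list lay between 7.16 and 8.69 in parous and between 7.28 and 9.42 in nulliparous stromal samples. Across genes, the 30 pairs of replicates with 10000 cells had Pearson correlations of 0.977 to 0.991, and the 4 pairs with 2000 cells 0.963 to 0.978. In these bulk samples, fewer cells of a type and less RNA per cell cannot be told apart.

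**Figure D1:**
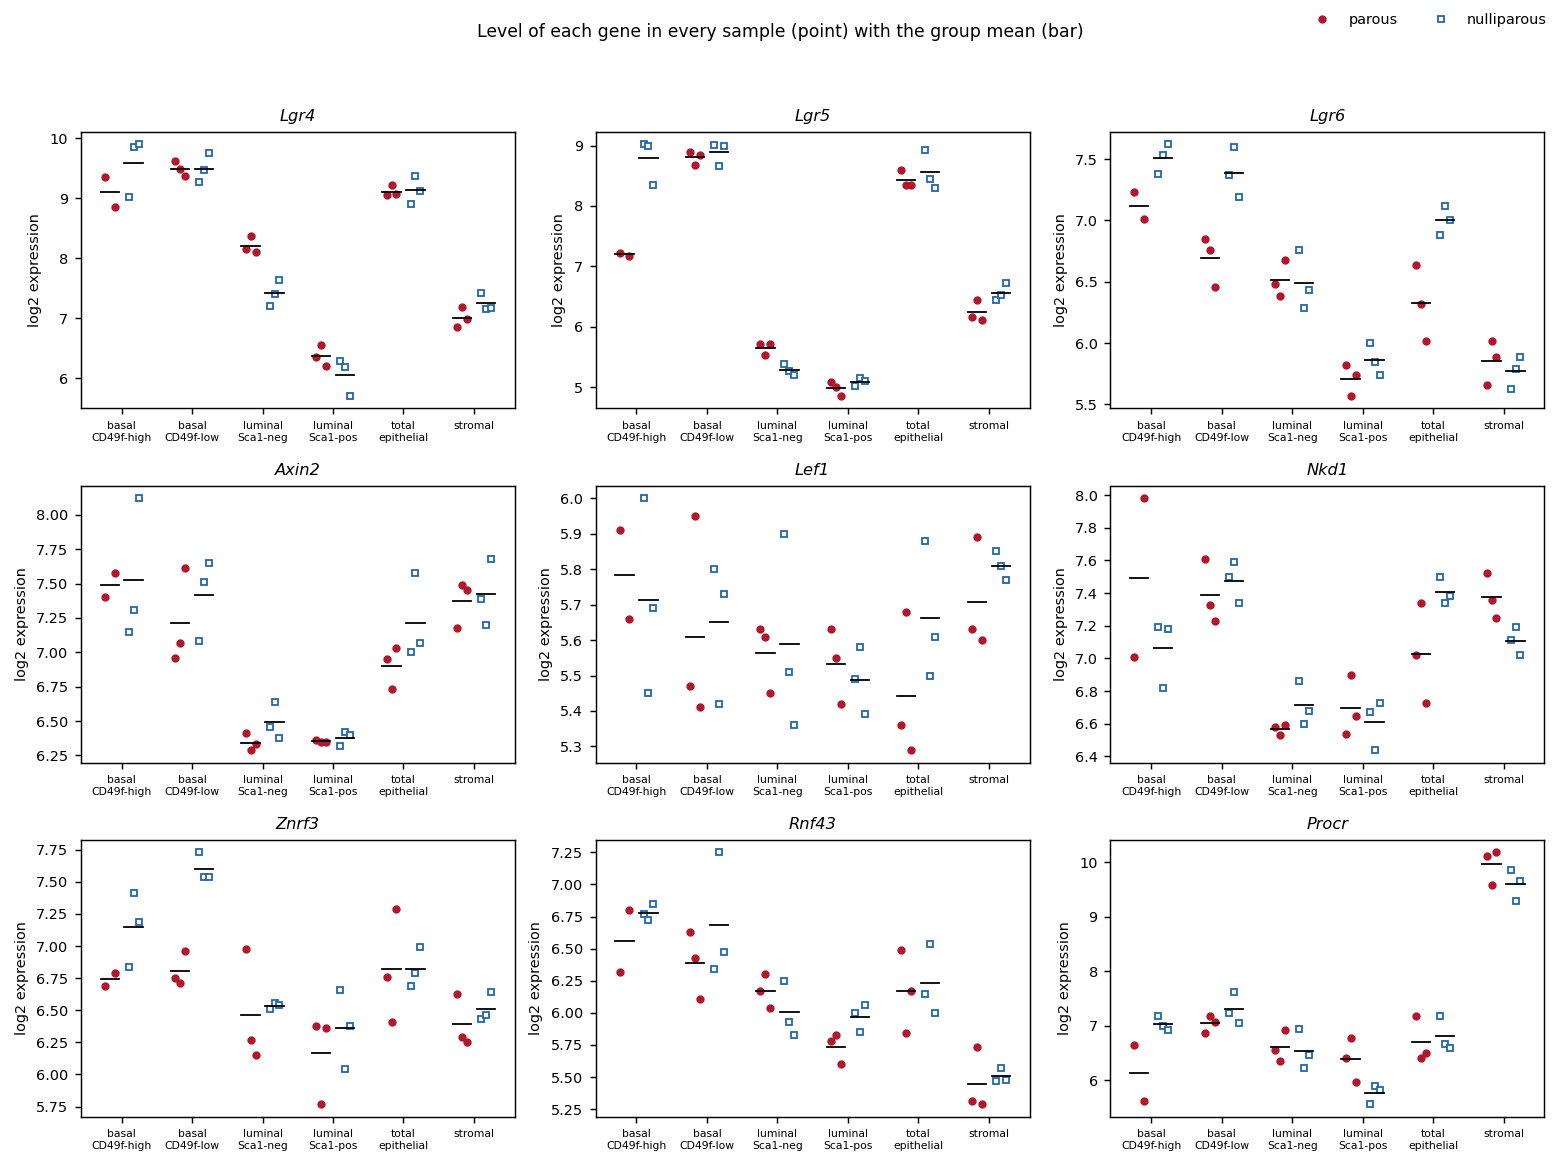
Log2 expression of the 9 measured genes (1 panel each, vertical axis) in the 6 subpopulations, with filled red circles for parous samples on the left of each pair, open blue squares for nulliparous samples on the right and a bar at each group mean. Lgr4 and Lgr5 were high in basal and total epithelial samples, Procr was high in stromal samples, and Lef1 lay between 5.29 and 6.0 everywhere.

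Lgr5, the R-spondin receptor best known as a marker of intestinal stem cells, separated basal from luminal cells most widely among the 9 genes. Its level was 8.89, 8.68 and 8.84 in parous and 9.01, 8.66 and 9.0 in nulliparous basal CD49f-low samples. Basal CD49f-high samples had 7.22 and 7.18 when parous and 9.02, 8.99 and 8.35 when nulliparous. Luminal Sca1-negative samples had 5.72, 5.54 and 5.72 when parous and 5.38, 5.27 and 5.21 when nulliparous. The 2 parous CD49f-high samples were the lowest basal samples, yet every basal sample lay above every luminal one. Luminal Sca1-positive samples had 5.09, 5.01 and 4.86 when parous and 5.02, 5.16 and 5.10 when nulliparous. Total epithelial samples had 8.59, 8.35 and 8.34 when parous and 8.93, 8.45 and 8.29 when nulliparous. Stromal samples had 6.17, 6.45 and 6.11 when parous and 6.44, 6.53 and 6.72 when nulliparous. Stromal cells thus stood between the basal and the luminal samples without overlapping either. In order, the mean level of Lgr5 was 8.85 in CD49f-low, 8.49 in total epithelial, 7.99 in CD49f-high, 6.40 in stromal, 5.47 in Sca1-negative and 5.04 in Sca1-positive cells. All neighbours in that order differed except CD49f-low and total epithelial cells, with adjusted p between 5.8e-12 and 0.00650.

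Lgr4, the most broadly expressed of the 3 receptors in mouse tissues, was also highest in basal cells but kept a clear level in Sca1-negative luminal cells. Its level was 9.35 and 8.85 in parous and 9.02, 9.85 and 9.90 in nulliparous basal CD49f-high samples. Basal CD49f-low samples had 9.63, 9.49 and 9.37 when parous and 9.27, 9.47 and 9.75 when nulliparous. The parous CD49f-high samples lay just below the parous CD49f-low samples, and the nulliparous basal samples overlapped. Luminal Sca1-negative samples had 8.16, 8.38 and 8.10 when parous and 7.21, 7.41 and 7.64 when nulliparous. Luminal Sca1-positive samples had 6.36, 6.56 and 6.20 when parous and 6.29, 6.19 and 5.71 when nulliparous. The 2 luminal sorts did not overlap, and both lay below all basal samples. Total epithelial samples ranged from 9.05 to 9.22 when parous and from 8.90 to 9.38 when nulliparous, and stromal samples from 6.86 to 7.19 when parous and from 7.16 to 7.42 when nulliparous. The mean fell in the order CD49f-low 9.50, CD49f-high 9.34, total epithelial 9.12, Sca1-negative 7.82, stromal 7.13 and Sca1-positive 6.22. The first 3 did not differ from their neighbours, and the next 3 steps were each called (adjusted p 2.8e-08, 2.2e-04 and 2.6e-06).

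Lgr6, a receptor that marks epidermal stem cells and mammary progenitors in mice, had a narrower range. It was 7.23 and 7.01 in parous and 7.38, 7.53 and 7.62 in nulliparous basal CD49f-high samples. Basal CD49f-low samples had 6.85, 6.76 and 6.46 when parous and 7.37, 7.60 and 7.19 when nulliparous. In both basal sorts the parous samples lay below the nulliparous ones. Luminal Sca1-negative samples ranged from 6.38 to 6.68 when parous and from 6.29 to 6.76 when nulliparous, and Sca1-positive samples from 5.57 to 5.82 when parous and from 5.74 to 6.0 when nulliparous. Total epithelial samples had 6.64, 6.32 and 6.02 when parous and 6.88, 7.12 and 7.0 when nulliparous, and stromal samples ranged from 5.66 to 6.02 when parous and from 5.63 to 5.89 when nulliparous. The mean order was CD49f-high 7.32, CD49f-low 7.04, total epithelial 6.66, Sca1-negative 6.50, stromal 5.81 and Sca1-positive 5.78. Only the step between Sca1-negative and stromal cells separated neighbours (difference 0.69, adjusted p = 5.4e-06).

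Axin2, the destruction complex scaffold that Wnt signalling itself induces, was high in basal and stromal samples alike. It was 7.40 and 7.58 in parous and 7.15, 7.31 and 8.12 in nulliparous basal CD49f-high samples, and 6.96, 7.07 and 7.61 in parous and 7.08, 7.51 and 7.65 in nulliparous CD49f-low samples. Stromal samples had 7.18, 7.49 and 7.45 when parous and 7.39, 7.20 and 7.68 when nulliparous. All luminal samples fell between 6.29 and 6.64. The luminal samples were therefore below every basal and every stromal sample, and parous and nulliparous samples overlapped in each of these sorts. The order was CD49f-high 7.51, stromal 7.40, CD49f-low 7.31, total epithelial 7.06, Sca1-negative 6.42 and Sca1-positive 6.37. Only the step below total epithelial cells separated neighbours (0.64, adjusted p = 0.00170). Nkd1, a Wnt-induced inhibitor that binds Dishevelled, had the same kind of step: CD49f-low, CD49f-high, stromal and total epithelial cells averaged 7.43, 7.28, 7.24 and 7.22, and Sca1-positive and Sca1-negative cells 6.66 and 6.64 (step 0.56, adjusted p = 9.6e-04).

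Procr, the protein C receptor, was highest in stromal samples. It was 10.12, 9.58 and 10.18 in parous and 9.85, 9.28 and 9.65 in nulliparous stromal samples, far above every epithelial sample. Basal CD49f-low samples had 6.87, 7.19 and 7.08 when parous and 7.23, 7.62 and 7.06 when nulliparous. Basal CD49f-high samples had 6.65 and 5.62 when parous and 7.19, 7.0 and 6.92 when nulliparous. The parous CD49f-high sample at 5.62 (replicate 3) was the lowest basal value, more than 1 unit below its only partner. Sca1-negative samples ranged from 6.35 to 6.92 when parous and from 6.22 to 6.94 when nulliparous, Sca1-positive samples from 5.98 to 6.77 when parous and from 5.57 to 5.90 when nulliparous. Total epithelial samples ranged from 6.42 to 7.18 when parous and from 6.59 to 7.18 when nulliparous. Stromal cells averaged 9.78 and the next subpopulation, CD49f-low, 7.18 (difference 2.60, adjusted p = 1.2e-12), and no later pair of neighbours differed, down to 6.08 in Sca1-positive cells.

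The ubiquitin ligase genes showed few steps between subpopulations, and Lef1 varied least of the 9 genes. Znrf3 fell gradually through CD49f-low 7.20, CD49f-high 6.95, total epithelial 6.82, Sca1-negative 6.50, stromal 6.45 and Sca1-positive cells 6.26, with no called step between neighbours. Rnf43 averaged 6.67 in CD49f-high, 6.54 in CD49f-low, 6.20 in total epithelial, 6.09 in Sca1-negative, 5.85 in Sca1-positive and 5.48 in stromal cells, and only the last step was called (0.38, adjusted p = 0.0314). Lef1, a TCF/LEF factor and itself a Wnt target, lay between 5.29 and 6.0 in all 35 samples, close to the median gene (6.0), and no neighbours differed. Over all 9 genes, 12 of 45 neighbouring pairs were called.

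Basal cells (11 samples) were compared with luminal cells (12 samples), averaging over reproductive history. Of the 9 genes, 8 were higher in basal cells and Lef1 was not called (0.15, 95% interval -0.02 to 0.31, adjusted p = 0.171). For comparison, 35.0% of all genes were called and 15.5% were higher. Among all called genes 44.3% were higher, a share that was 56.4% after a further quantile normalization. Lgr5 averaged 8.42 in basal and 5.26 in luminal cells (8.96-fold, difference 3.16, SE 0.08, adjusted p = 9.2e-23). Lgr4 averaged 9.42 in basal and 7.02 in luminal cells (5.29-fold, 2.40, SE 0.10, adjusted p = 8.7e-18). The differences of the other called genes were 1.03 for Lgr6, 1.02 for Axin2, 0.71 for Nkd1, 0.69 for Znrf3, 0.63 for Rnf43 and 0.55 for Procr (SE 0.08 to 0.13, adjusted p between 5.6e-12 and 0.00131). Basal and luminal samples did not overlap for Lgr4, Lgr5 and Axin2, against 2.52% of all genes that were higher without overlap. The median difference was 0.71 for the 9 genes and 0.00 for all genes. Of the markers of other cell types, 4 of 8 fibroblast and 2 of 4 pericyte markers (Mcam and Pdgfrb) were higher in basal cells. Mcam, however, was lower in stromal than in total epithelial cells. Of 7 endothelial markers, 1 was higher (Pecam1) and 1 lower (Vwf) in basal cells. The part of these markers in the differences was not tested.

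**Figure D2:**
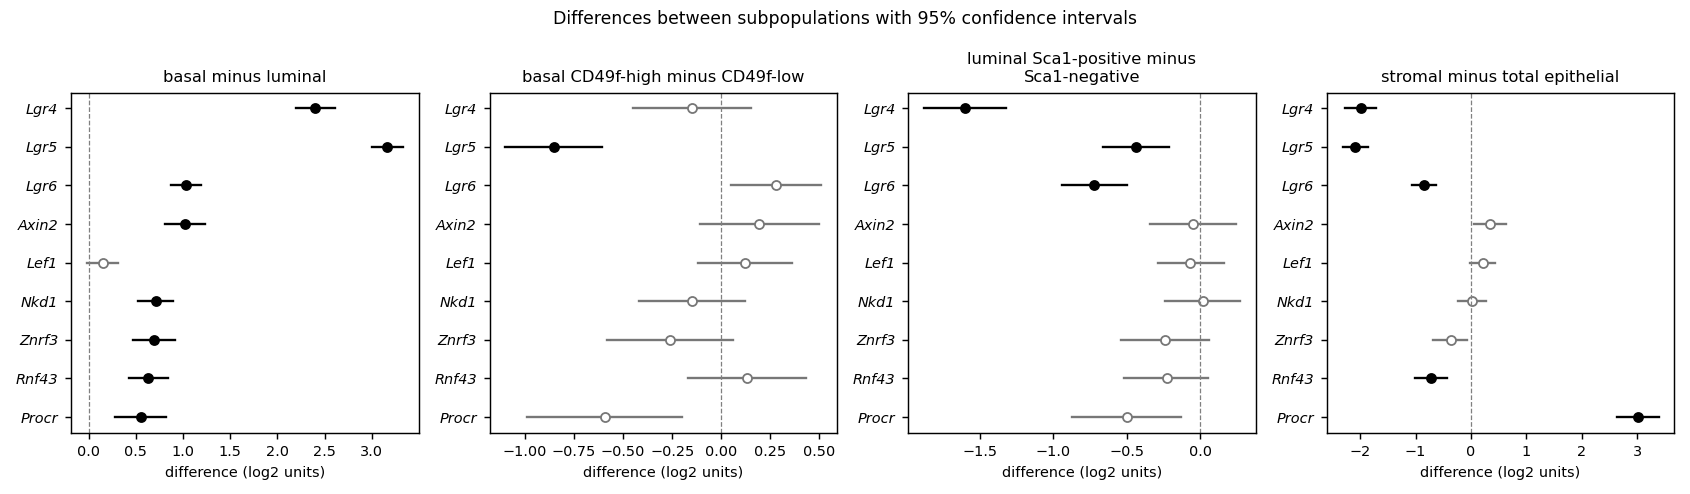
Log2 difference between subpopulations (horizontal axis, first minus second, averaged over reproductive history) for the 9 genes, with bars for the 95% interval, filled black points for adjusted p under 0.05 and open grey points for the rest. Lgr5 was higher in basal than luminal cells by 3.16 and lower in CD49f-high than CD49f-low cells by a difference of -0.85, and Procr was higher in stromal than total epithelial cells by 3.02.

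Promoter sequences are shown for 3 genes with a basal or luminal step, Lgr4 and Lgr6 among the receptors and Axin2 as the classical target, and for Lef1, whose promoter held the only match to the TCF/LEF core. They come from RefSeq (GRCm38.p6) and run from 250 bases before to 50 bases after an annotated start site on the gene's strand. Windows were found for 7 of the 9 genes, 11 windows in all, with none for Lgr5 and Znrf3. The probe sets interrogate transcripts of genes spanning chr2:109917647-110014257 for Lgr4, chr1:134983300-135105374 for Lgr6, chr11:108917828-108950783 for Axin2 and chr3:131110297-131224357 for Lef1. Capitals mark matches to a motif. The windows are chr2:109917397-109917696 (plus strand) for Lgr4, chr1:135105227-135105526 (minus strand) for Lgr6, chr11:108920099-108920398 (plus strand) for Axin2 and chr3:131156044-131156343 (plus strand) for the start site of Lef1 farthest downstream.
Lgr4: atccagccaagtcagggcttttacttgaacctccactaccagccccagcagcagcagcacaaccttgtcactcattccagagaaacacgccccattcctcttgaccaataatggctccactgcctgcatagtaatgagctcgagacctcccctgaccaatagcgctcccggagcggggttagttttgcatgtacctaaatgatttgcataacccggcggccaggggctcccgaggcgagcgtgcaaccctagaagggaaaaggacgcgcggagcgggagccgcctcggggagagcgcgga
Lgr6: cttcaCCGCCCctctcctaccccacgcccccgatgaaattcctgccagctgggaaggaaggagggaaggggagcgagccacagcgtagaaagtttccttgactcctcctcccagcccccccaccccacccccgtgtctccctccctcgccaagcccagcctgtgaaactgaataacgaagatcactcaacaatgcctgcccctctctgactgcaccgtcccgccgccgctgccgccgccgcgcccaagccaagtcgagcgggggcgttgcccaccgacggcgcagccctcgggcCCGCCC
Axin2: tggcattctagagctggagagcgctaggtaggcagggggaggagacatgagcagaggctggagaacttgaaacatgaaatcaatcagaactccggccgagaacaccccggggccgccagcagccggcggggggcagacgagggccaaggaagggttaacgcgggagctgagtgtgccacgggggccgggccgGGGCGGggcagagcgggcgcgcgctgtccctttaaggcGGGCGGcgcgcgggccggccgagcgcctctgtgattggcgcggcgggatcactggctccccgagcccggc
Lef1: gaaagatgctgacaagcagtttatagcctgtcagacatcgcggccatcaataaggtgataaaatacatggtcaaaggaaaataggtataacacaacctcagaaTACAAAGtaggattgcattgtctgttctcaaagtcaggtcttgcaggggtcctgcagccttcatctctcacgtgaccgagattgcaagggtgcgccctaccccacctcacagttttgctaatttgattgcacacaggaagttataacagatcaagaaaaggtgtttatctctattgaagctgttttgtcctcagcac
The TCF/LEF core was searched on both strands in the form CTTTGAA, the form CTTTGAT, the form CTTTGTA and the form CTTTGTT. It occurred in 16.9% of 32851 promoter windows of the genome and, among the 11 windows of these genes, once, in the Lef1 window on the minus strand (printed as TACAAAG), starting 147 bases before the start site. The GC box GGGCGG, also searched on both strands, occurred in 35.7% of all windows. It matched the Axin2 window at 58 and 20 bases before the start site, the Lgr6 window at both ends on the minus strand (printed as CCGCCC) and the other 3 Lef1 windows once each. No match was found in the windows of Lgr4, Nkd1, Procr or Rnf43, which says only that these letters do not occur there.

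Within basal cells, CD49f-high samples were compared with CD49f-low samples. Only Lgr5 was called among the 9 genes, averaging 7.99 in CD49f-high and 8.85 in CD49f-low cells (-0.85, SE 0.12, adjusted p = 2.0e-04), against 3.54% of all genes called. Procr was -0.59 (SE 0.19, adjusted p = 0.0821) and passed without parous CD49f-high replicate 2 (-0.85, adjusted p = 0.0133). A split by history, chosen after the values were seen, placed the Lgr5 difference in parous cells. Parous CD49f-high cells averaged 7.20 and parous CD49f-low cells 8.80 (-1.60, SE 0.18, adjusted p = 2.4e-06, 7.18% of all genes called). Nulliparous CD49f-high cells averaged 8.78 and nulliparous CD49f-low cells 8.89 (-0.11, SE 0.16, adjusted p = 0.894, 0.115% of all genes called). With the spread estimated from the compared samples alone, adjusted p was 0.0581 for the average and 0.0520 within parous cells. Fibroblast and endothelial markers were lower in CD49f-high cells for 2 of 8 and 2 of 7 genes, and their part in the Lgr5 difference was not tested.

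Within luminal cells, all 3 Lgr receptors were lower in Sca1-positive than in Sca1-negative cells. Lgr4 averaged 6.22 in Sca1-positive and 7.82 in Sca1-negative cells (-1.60, SE 0.14, adjusted p = 5.8e-10). Lgr6 averaged 5.78 in Sca1-positive and 6.50 in Sca1-negative cells (-0.72, SE 0.11, adjusted p = 8.9e-06). Lgr5 averaged 5.04 in Sca1-positive and 5.47 in Sca1-negative cells (-0.44, SE 0.11, adjusted p = 0.00563). Both Lgr5 levels lay below the median gene (6.0). Each of the 3 separated the sorts without overlap. Of all genes, 16.1% were called, 7.11% were lower and 3.93% were lower without overlap. The other 6 genes were not called. Procr came nearest, at -0.50 (adjusted p = 0.0615), and passed without replicate 2 of parous or nulliparous Sca1-negative cells or of parous Sca1-positive cells (adjusted p 0.0323 to 0.0484). Basal markers were also lower in Sca1-positive cells, 5 of 8 with a median of -0.66, and their part in the Lgr differences was not tested.

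Stromal cells were compared with total epithelial cells. Procr averaged 9.78 in stromal and 6.76 in total epithelial cells (8.09-fold, 3.02, SE 0.18, adjusted p = 4.3e-14). The receptors were lower in stromal cells, by -2.09 for Lgr5 (SE 0.11, adjusted p = 2.6e-15), -1.99 for Lgr4 (SE 0.14, adjusted p = 1.1e-12) and -0.85 for Lgr6 (SE 0.11, adjusted p = 2.2e-07), and Rnf43 was lower by -0.72 (SE 0.14, adjusted p = 1.3e-04). None of these 5 overlapped between the sorts, against 16.8% of all genes, and 29.2% of all genes were called. Beside fibroblast markers, 6 of 7 endothelial markers (median 1.88) and 3 of 4 pericyte markers (median 1.90) were higher in stromal cells. The remaining pericyte marker, Mcam, was lower there. The part of these markers in the Procr difference was not tested. Axin2, Nkd1 and Lef1 were not called (0.34, 0.02 and 0.21, adjusted p 0.0706, 0.915 and 0.173), nor was Znrf3 (-0.37, adjusted p = 0.0573). Axin2 passed without nulliparous replicate 2 of stromal (0.40, adjusted p = 0.0466) or of total epithelial cells (0.43, adjusted p = 0.0249), and Znrf3 without parous stromal replicate 1 (-0.43, adjusted p = 0.0378) or parous total epithelial replicate 2 (-0.48, adjusted p = 0.0157).

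The parity comparison set parous against nulliparous cells in each subpopulation. The clearest difference among the 9 genes was Lgr5 in basal CD49f-high cells. The parous samples had 7.22 and 7.18, against 9.02, 8.99 and 8.35 in nulliparous samples, so the parous samples were both more than 1 unit below the lowest nulliparous one. The means were 7.20 in parous and 8.78 in nulliparous cells, a parous level 0.33 times the nulliparous one (-1.58, SE 0.18, 95% interval -1.94 to -1.22, adjusted p = 1.3e-06). In this sort 9.06% of all genes were called. The Lgr5 difference lay between -1.80 and -1.47 in 15 alternative settings and was called in 14. With only the 5 samples of this sort fitted, its SE was 0.27 and its adjusted p 0.169 (unadjusted p = 8.2e-04), and no gene was called. Procr was the other called gene, 6.65 and 5.62 in parous samples against 7.19, 7.0 and 6.92 in nulliparous samples (-0.91, SE 0.29, adjusted p = 0.0446). It rested on the parous sample at 5.62: without that replicate 3 the difference was -0.39 (adjusted p = 0.579). Leaving out nulliparous replicate 1, 2 or 3 also ended the Procr call (adjusted p 0.0921, 0.0906 and 0.0684).

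The remaining genes were not called in basal CD49f-high cells. Lgr6 (-0.39, adjusted p = 0.158) and Znrf3 (-0.40, adjusted p = 0.328) had all parous below all nulliparous samples, as did Lgr5 and Procr, so 4 of 9 genes were lower without overlap, against 11.8% of all genes. Lgr4 had 9.35 and 8.85 in parous and 9.02, 9.85 and 9.90 in nulliparous samples (-0.49, adjusted p = 0.173), and it passed without nulliparous replicate 1 (-0.78, adjusted p = 0.0111). Nkd1 had 7.01 and 7.98 in parous and 7.19, 6.82 and 7.18 in nulliparous samples, with 1 parous sample inside the nulliparous range and the other above it. Its difference of 0.43 (adjusted p = 0.191) became 0.91 without parous replicate 2 (adjusted p = 0.00389). Axin2 differed by -0.04 (95% interval -0.49 to 0.42, adjusted p = 0.957), Lef1 by 0.07 and Rnf43 by -0.22. Basal markers were higher in the parous samples for 3 of 8 genes, with list means of 10.54 to 10.76 in parous and 9.92 to 10.40 in nulliparous samples. Pan-luminal markers had 0 of 8 called (9.14 to 9.19 in parous, 8.57 to 9.27 in nulliparous), fibroblast markers 1 of 8 lower (6.09 to 6.23 in parous, 6.30 to 6.77 in nulliparous) and endothelial markers 1 of 7 lower (5.14 to 5.75 in parous, 5.56 to 6.79 in nulliparous). Luminal hormone-sensing list means were 6.36 to 6.41 in parous and 6.68 to 6.71 in nulliparous samples, without overlap, with Prom1 called lower (-1.04). The immune marker Cd68 (1.20, 1 of 6) and Mcam of the pericyte list (1.33, 1 of 4) were called higher. Mcam was lower in stromal than in total epithelial cells. The part of these markers in the Lgr5 and Procr differences was not tested.

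**Figure D3:**
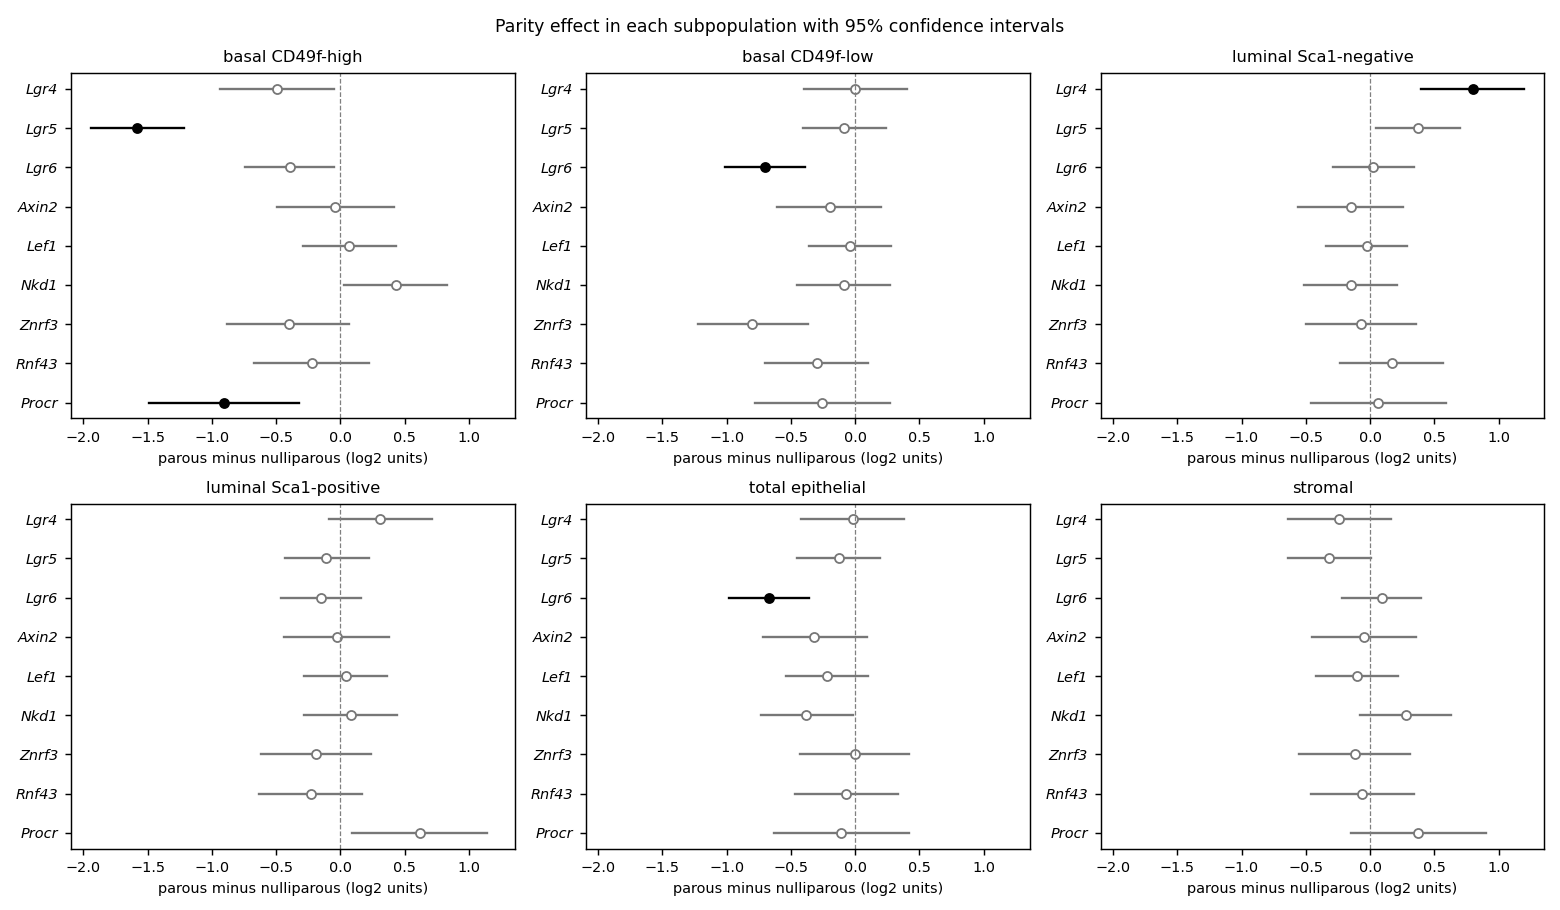
Log2 difference between parous and nulliparous samples (horizontal axis) for the 9 genes in each of the 6 subpopulations, with bars for the 95% interval, filled black points for adjusted p under 0.05 and open grey points for the rest. Lgr5 in basal CD49f-high cells lay at -1.58, and the other called points were Procr in the same cells, Lgr6 in CD49f-low and total epithelial cells and Lgr4 in Sca1-negative cells.

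In basal CD49f-low cells, Lgr6 was the only called gene, with 6.85, 6.76 and 6.46 in parous and 7.37, 7.60 and 7.19 in nulliparous samples. The groups did not overlap (-0.70, SE 0.15, adjusted p = 0.0153), in a comparison where 0.968% of all genes were called and 7.56% were lower without overlap. The call was lost without parous replicate 3 (-0.58, adjusted p = 0.139) or nulliparous replicate 2 (-0.59, adjusted p = 0.142). Znrf3, one of the ligases that R-spondins remove, had 6.75, 6.71 and 6.96 in parous and 7.73, 7.54 and 7.54 in nulliparous samples. These did not overlap either, and the difference just missed the threshold (-0.80, SE 0.21, adjusted p = 0.0599). Lgr5 did not differ detectably here (-0.09, 95% interval -0.41 to 0.24, adjusted p = 0.922). Fibroblast list means were 6.49 to 6.75 in parous and 7.11 to 7.51 in nulliparous CD49f-low samples, with 1 of 8 genes lower, and their part in the Lgr6 and Znrf3 values was not tested.

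Total epithelial cells gave a like value for Lgr6, with 6.64, 6.32 and 6.02 in parous and 6.88, 7.12 and 7.0 in nulliparous samples, again without overlap (-0.67, SE 0.15, adjusted p = 0.0345). In this comparison 0.446% of all genes were called and 7.78% were lower without overlap. The call was lost without parous replicate 2 (adjusted p = 0.136) or 3 (-0.52, adjusted p = 0.350) and without nulliparous replicate 2 (adjusted p = 0.246) or 3 (adjusted p = 0.111). Fibroblast list means were 6.60 to 7.30 in parous and 7.05 to 7.76 in nulliparous samples, with 0 of 8 genes called, and their part was not tested. Total epithelial and CD49f-low cells were alike, with 2.25% of all genes called between them. The Lgr6 values in total epithelial cells are therefore not shown to be an independent repeat.

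In luminal Sca1-negative cells, Lgr4 was higher in parous samples, with 8.16, 8.38 and 8.10 against 7.21, 7.41 and 7.64 in nulliparous samples. The groups did not overlap (1.74-fold, 0.80, SE 0.20, adjusted p = 0.0389), where 1.00% of all genes were called and 7.31% were higher without overlap. Of all genes called, 66.0% were higher, and 55.7% after a further quantile normalization. The Lgr4 call was lost without any 1 of the 3 parous samples (adjusted p 0.0772 to 0.184) and without nulliparous replicate 1 (0.69, adjusted p = 0.149) or 2 (0.79, adjusted p = 0.135). Lgr5 had 5.72, 5.54 and 5.72 in parous and 5.38, 5.27 and 5.21 in nulliparous samples, which did not overlap but was not called (0.37, SE 0.16, adjusted p = 0.342). Nkd1 had 6.58, 6.53 and 6.59 in parous and 6.86, 6.60 and 6.68 in nulliparous samples, lower without overlap (-0.15, adjusted p = 0.834), as were 10.4% of all genes. Basal markers were higher in the parous samples for 3 of 8 genes, with list means of 7.28 to 7.48 in parous and 6.70 to 6.96 in nulliparous samples, and their part in the Lgr4 and Lgr5 values was not tested.

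No member of the set was called in luminal Sca1-positive or in stromal cells, where 0.607% and 0.597% of all genes were called by limma. At an unadjusted p under 0.05 the counts were 1 of 9 genes (1322 of all genes) in Sca1-positive and 0 of 9 (1827 of all genes) in stromal cells. Procr in Sca1-positive cells had 6.42, 6.77 and 5.98 in parous and 5.57, 5.90 and 5.83 in nulliparous samples, higher without overlap (0.62, SE 0.26, adjusted p = 0.612), as were 6.19% of all genes. Rnf43 went the other way, with 5.78, 5.83 and 5.60 in parous and 6.0, 5.85 and 6.06 in nulliparous samples, lower without overlap (-0.23, adjusted p = 0.997), as were 6.66% of all genes. Endothelial list means were 5.84 to 6.34 in parous and 5.15 to 5.55 in nulliparous Sca1-positive samples, with 0 of 7 genes called. In stromal cells Procr differed by 0.37 (adjusted p = 0.720), Lgr5 by -0.32 (adjusted p = 0.560) and Nkd1 by 0.28 (adjusted p = 0.688), the last with 7.52, 7.36 and 7.25 in parous and 7.11, 7.19 and 7.02 in nulliparous samples, higher without overlap, as were 9.59% of all genes. Basal list means were 7.47 to 7.72 in parous and 8.07 to 8.11 in nulliparous stromal samples, with 2 of 8 genes, Krt5 and Krt14, called lower.

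Averaged over the 4 sorted epithelial subpopulations, Lgr5 was 6.66 in parous and 7.01 in nulliparous cells (-0.35, SE 0.08, adjusted p = 0.00711), Lgr6 was 6.51 in parous and 6.81 in nulliparous cells (-0.31, SE 0.08, adjusted p = 0.0153) and Znrf3 6.55 in parous and 6.91 in nulliparous cells (-0.36, SE 0.11, adjusted p = 0.0381). Of all genes 6.20% were called. The Znrf3 call held in 13 of 33 alternative settings and was lost in 15 of the 23 that left out 1 sample (adjusted p 0.0504 to 0.0833). It held without parous replicate 1 of Sca1-negative, 1 or 3 of Sca1-positive or 3 of CD49f-low cells, and without nulliparous replicate 1 of Sca1-negative, 2 of Sca1-positive, 3 of CD49f-low or 1 of CD49f-high cells. The parity difference of Lgr5 varied among the 6 subpopulations (moderated F 14.99, adjusted p = 1.9e-04), as it did for 2.80% of all genes. Lgr6 (F 5.04, adjusted p = 0.0630) and Lgr4 (F 4.97, adjusted p = 0.0660) just missed the threshold, and Procr (adjusted p = 0.145) and Nkd1 (adjusted p = 0.326) did not pass. Contrasts chosen after the values were seen gave the difference itself. The Lgr5 parity difference was more negative in CD49f-high than in CD49f-low cells by -1.49 (SE 0.24, adjusted p = 8.9e-04, 2.27% of all genes called), a call lost when only these groups were fitted (adjusted p = 0.127), and in basal than in luminal cells by -0.97 (SE 0.16, adjusted p = 8.2e-04, 2.04% of all genes called). For Lgr4 the basal minus luminal value was -0.80 (SE 0.20, adjusted p = 0.0310). That call was lost without parous replicate 3 of either basal sort or 2 of either luminal sort, and without nulliparous replicate 2 or 3 of CD49f-high, 3 of CD49f-low, 1 of Sca1-negative or 3 of Sca1-positive cells (adjusted p 0.0570 to 0.0860). It was also lost without the nulliparous samples numbered replicate 3 (-0.63, adjusted p = 0.173) and with only these groups fitted (adjusted p = 0.0865). For Procr the CD49f-high minus CD49f-low value was -0.65 (adjusted p = 0.457). The Lgr4 parity difference was not shown to differ between Sca1-negative and Sca1-positive cells (0.48, adjusted p = 0.899).

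The surrounding pathway was read from lists of genes all of which had a probe set. R-spondins, the ligands of the Lgr receptors, gave few calls, 1 of 4 in each of the following comparisons. Rspo1 was lower in basal than luminal cells (-0.31, adjusted p = 0.0195) and lower in Sca1-positive than Sca1-negative cells (-1.02, adjusted p = 2.6e-06). Rspo3 averaged 4.78 in stromal and 4.23 in total epithelial cells (0.55, adjusted p = 7.6e-05), with overlapping samples. The means of Rspo2, Rspo3 and Rspo4 lay below the median gene (6.0) in every comparison. In basal compared with luminal cells, Wnt receptors and co-receptors had 9 of 15 higher and 1 lower, led by the Frizzled receptor genes Fzd7 (9.85 in basal and 7.53 in luminal cells, 2.32, SE 0.06) and Fzd3 (1.85) and by Ryk (0.92), with Fzd6 lower (-0.66). Other Wnt targets had 8 of 18 higher and 1 lower, among them Wif1, a secreted Wnt inhibitor (2.59), Bambi (0.93) and Myc (0.85), with the cyclin gene Ccnd1 lower (-0.91). Secreted or surface antagonists had 5 of 10 higher, including Sfrp1 (2.51), Dkk3 (1.48) and Sostdc1 (1.38), and nuclear partners 6 of 10 higher, including Tcf7l1 (1.08) and Tle1 (1.06). The destruction complex was divided, with 3 of 10 higher and 3 lower (Apc -0.90, Gsk3b -0.47, Axin1 -0.25), and Wnt ligands likewise, with 4 of 19 higher and 3 lower. Of all genes, 35.0% were called in this comparison and 15.5% were higher. The list medians were 0.28 for receptors, 0.18 for targets, 0.32 for antagonists, 0.32 for nuclear partners, -0.05 for the destruction complex and 0.04 for ligands, against 0.00 for all genes.

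Sca1-positive compared with Sca1-negative luminal cells had lower Fzd7 (-0.87), Tcf7l2 (-1.24), the co-repressor gene Tle4 (-1.30), Cd44 (-1.58), Myc (-0.82), Sfrp1 (-1.51) and Sfrp2 (-1.22). Among ligands Wnt5a (1.02) and Wnt4 (0.38) were higher and Wnt5b lower (-1.42), and Apc (0.76) and Btrc (0.66) were higher. By list, in a comparison where 16.1% of all genes were called, 2 of 15 receptors were higher (Fzd4 0.54 and Lrp5 0.29). Another 3 receptors were lower (Fzd7, Ror1 -0.42 and Fzd5 -0.26). Of 10 nuclear partners 3 were lower, among them Tcf7l1 (-0.54), as were 2 of 10 antagonists. Of 18 targets, 1 was higher (Lbh 0.49) and 2 were lower. In stromal compared with total epithelial cells the antagonist Sfrp4 averaged 9.28 in stromal and 4.27 in total epithelial cells (5.01, SE 0.14), and Twist1 (2.52), Fzd4 (1.93), Sfrp2 (1.91), Bmp4 (1.27), Apcdd1 (1.24) and Wnt2 (0.86) were also higher. Sox9 (-2.02), Wif1 (-1.89) and Fzd3 (-1.76) were lower. Receptors were split evenly there, 5 higher and 5 lower of 15, against 29.2% of all genes called. Between CD49f-high and CD49f-low cells only Axin1 was called among all the lists (-0.42, adjusted p = 0.0149).

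**Figure D4:**
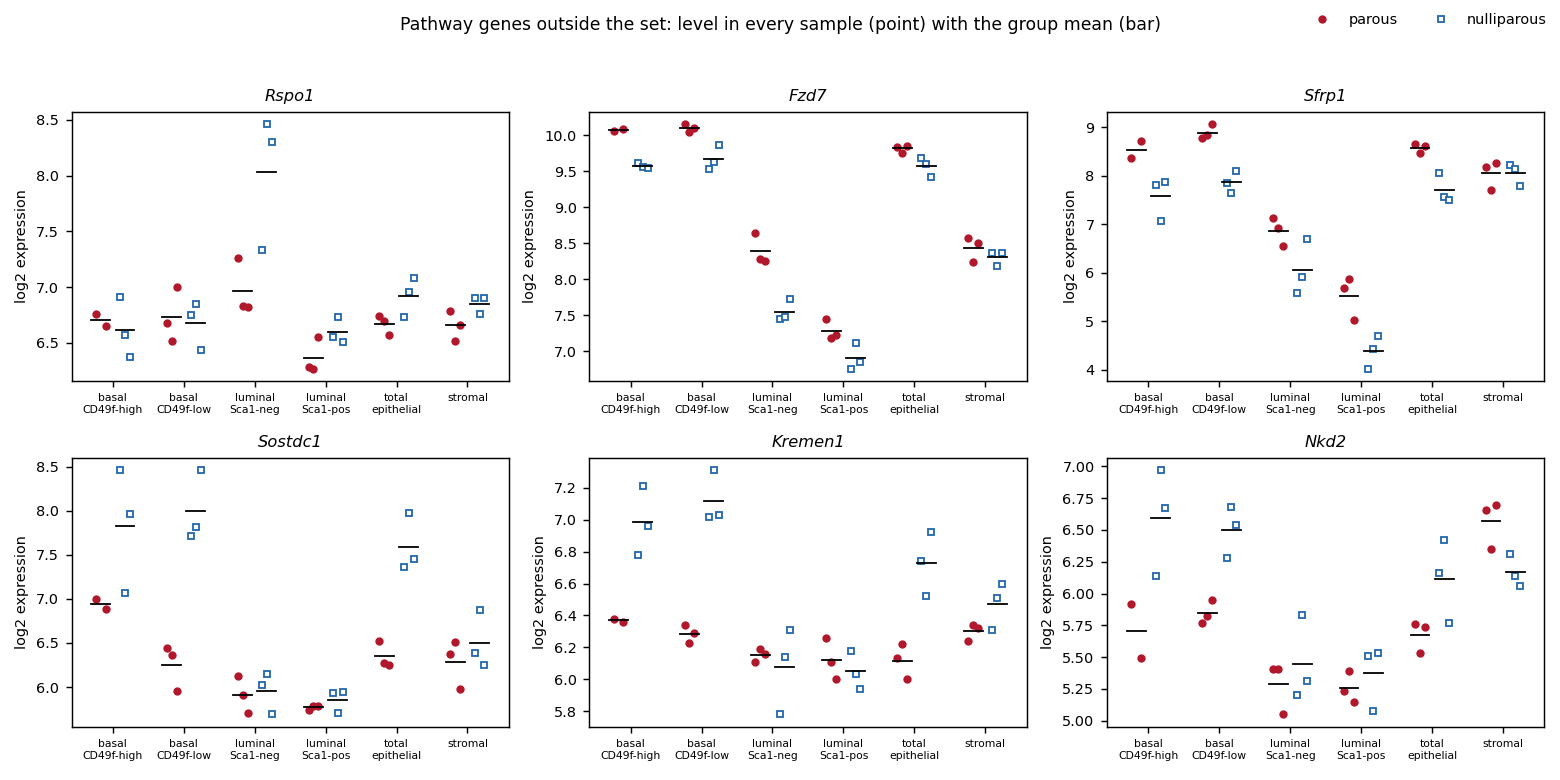
Log2 expression (vertical axis) of Rspo1, Fzd7, Sfrp1, Sostdc1, Kremen1 and Nkd2 in the 6 subpopulations, with filled red circles for parous samples on the left, open blue squares for nulliparous samples on the right and a bar at each group mean. In basal CD49f-low cells Sostdc1 lay between 5.95 and 6.44 in parous and between 7.71 and 8.46 in nulliparous samples, and Kremen1 between 6.23 and 6.34 in parous and between 7.02 and 7.31 in nulliparous samples.

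With parity, 1 of 10 secreted or surface Wnt antagonists was higher and 2 were lower in basal CD49f-low cells, where 0.968% of all genes were called. Sostdc1, which binds Lrp co-receptors and BMPs, had 6.44, 6.36 and 5.95 in parous and 7.71, 7.82 and 8.46 in nulliparous CD49f-low samples (-1.75, SE 0.25, adjusted p = 1.4e-04). Kremen1, a receptor for Dickkopf inhibitors, had 6.34, 6.23 and 6.29 in parous and 7.02, 7.31 and 7.03 in nulliparous CD49f-low samples (-0.84, adjusted p = 4.5e-04). Both were below the nulliparous range in every parous sample. With only these groups fitted, the Kremen1 call was lost (adjusted p = 0.0562). Sfrp1, a secreted Frizzled-related protein, had 8.78, 8.84 and 9.06 in parous and 7.85, 7.65 and 8.09 in nulliparous CD49f-low samples (1.03, adjusted p = 0.0460), and its call was lost without any 1 of the 6 samples (adjusted p up to 0.227). The same 3 genes of 10 antagonists were called in CD49f-high cells, with differences of -0.89 for Sostdc1, -0.61 for Kremen1 and 0.96 for Sfrp1. There the Sostdc1 call was lost in 4 of the 5 leave-outs of 1 sample (adjusted p up to 0.179) and the Sfrp1 call without parous replicate 2 or 3 or nulliparous replicate 2 (adjusted p 0.0526 to 0.209). Sostdc1 (-1.24, adjusted p = 0.0102) and Kremen1 (-0.61, adjusted p = 0.0218) were also lower in parous total epithelial cells, but every leave-out of 1 sample except nulliparous replicate 2 ended the Kremen1 call, and the Sostdc1 call was lost without parous replicate 2 or 3 or nulliparous replicate 2 (adjusted p 0.0652 to 0.140). In Sca1-positive cells Sfrp1 was higher (1.14, adjusted p = 0.0277), a call lost without parous or nulliparous replicate 1 or 2 (adjusted p up to 0.225). Lbh, a transcription cofactor gene of the Wnt target list, was also higher there, with 9.34, 9.17 and 8.61 in parous and 8.81, 7.64 and 7.58 in nulliparous samples, which overlapped (1.03, adjusted p = 0.0149). Its call was lost without parous replicate 1 or 2 or nulliparous replicate 2 or 3 (adjusted p 0.102 to 0.182).

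Other pathway genes called with parity in CD49f-high cells were Ryk (0.97), Fzd2 (0.58), Fzd7 (0.50) and Ror1 (-0.58) of 15 receptors, Bambi (0.76), Cd44 (-1.14) and Nkd2 (-0.89) of 18 targets, Bcl9 (1.05) and Tle3 (-0.62) of 10 nuclear partners, and Axin1 (-0.53) and Csnk1a1 (-0.38) of 10 destruction complex genes. Nkd2, a relative of Nkd1, had 5.92 and 5.49 in parous and 6.14, 6.97 and 6.67 in nulliparous samples, so its direction was opposite to the Nkd1 value of 0.43 that did not pass. Of the 14 pathway genes called in CD49f-high cells, 13 lost the call without some 1 of the 5 samples, and Kremen1 did not but lost it with array weights (adjusted p = 0.0753) and with only the groups compared (adjusted p = 0.367). In this sort 9.06% of all genes were called. Ryk was 0.39 without parous replicate 2 (adjusted p = 0.180), Fzd2 0.39 without the same sample (adjusted p = 0.256) and Csnk1a1 -0.04 without parous replicate 3 (adjusted p = 0.906). In Sca1-negative cells Fzd7 had 8.64, 8.28 and 8.25 in parous and 7.45, 7.47 and 7.72 in nulliparous samples (0.84, adjusted p = 1.8e-04), and Fzd7 kept its call without any single sample. Myc was higher (0.60, adjusted p = 0.0253) but not without parous replicate 2 or 3 or nulliparous replicate 1 or 2 (adjusted p 0.0893 to 0.169). Rspo1 had 7.26, 6.83 and 6.82 in parous and 7.33, 8.46 and 8.30 in nulliparous Sca1-negative samples (-1.06, SE 0.20, adjusted p = 0.00355). Its call was lost without nulliparous replicate 2 (adjusted p = 0.0632) and with only these groups fitted (adjusted p = 0.146). Basal markers, 3 of 8 of which were higher in these parous samples, moved with the Fzd7 and Myc values, and their part was not tested. No Wnt ligand was called with parity in any subpopulation by limma, and no gene of these lists in stromal cells. Averaged over the 4 sorted epithelial subpopulations, Fzd7 (0.54, adjusted p = 2.4e-06) and Sfrp1 (0.98, adjusted p = 1.8e-05) were higher. So were Ryk (0.34, adjusted p = 0.0171) and Myc (0.29, adjusted p = 0.0116). Sostdc1 (-0.69, adjusted p = 7.1e-04), Nkd2 (-0.45, adjusted p = 0.00399) and Kremen1 (-0.33, adjusted p = 0.00237) were lower. Of all genes 6.20% were called in this average. Sostdc1 and Kremen1 were each called lower in both basal sorts and in neither luminal sort.

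Across the 35 samples, which share their subpopulations, the genes most like each member followed cell type. Lgr5 ran with Elovl4, Stac2 and the smooth muscle gene Cnn1 (Pearson's r 0.952, 0.948 and 0.946), and Lgr4 with Cadm1, Nhsl1 and the laminin gene Lama3 (0.965, 0.952 and 0.944). Lgr6 ran with Bcam, Syt12 and Lama1 (0.889, 0.881 and 0.872), and Axin2 with Fscn1, Mycbp2 and the collagen gene Col14a1 (0.894, 0.889 and 0.886). Procr ran with Slfn5, Ebf1 and the fibulin gene Fbln5 (0.970, 0.960 and 0.959). Nkd1 (Rasa3, Asph and Cpxm2, 0.851, 0.850 and 0.831), Znrf3 (Ptpru, Klhl23 and Lmo1, 0.832, 0.824 and 0.809) and Lef1 (Bcl6b, Prcd and Atoh8, 0.712, 0.678 and 0.664) had looser neighbours. The gene nearest to Rnf43 was Lgr6 itself (0.858), then Agrn (0.852) and Fermt1 (0.841). Among the 9 genes, Lgr4 and Lgr5 correlated at 0.89, Lgr4 and Lgr6 at 0.84, Lgr5 and Lgr6 at 0.71, Lgr5 and Znrf3 at 0.72 and Axin2 and Nkd1 at 0.69. Procr and Rnf43 ran in opposite directions (-0.47), and Lef1 correlated with the other 8 between -0.05 and 0.37. These coefficients describe the samples and carry no test.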

How the data were processed

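The deposited table holds log2 expression values for 34760 probe sets, as its range of 1.74 to 13.28 and the column medians of 5.813 to 5.924 show. Per the labels, RNA was amplified before hybridization. Per the submitters' processing notes the affy package was used, with version, normalization and build not given in the sources used here. Of the probe sets, 21640 had a single gene symbol, 1321 several and 11799 none, and only the first kind was used. For 954 genes with more than 1 probe set, that with the highest mean was taken, which left 19937 genes.

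All 35 samples were fitted as 12 group means with limma 3.58.1 (lmFit, eBayes with a trend) in R 4.3.3. Adjusted p-values are Benjamini-Hochberg over all genes of a comparison. The fit was tested on simulated data. Replicates are pools of mice. The spread of each gene within groups was estimated over all 12 groups together. P-values therefore measure against a spread shared by unlike sorts, not against that of the compared sort alone. The number of arrays limits the precision. The genes, marker lists and pathway lists were chosen with earlier results of these data known. Besides the members, the genes named were up to 3 called genes per direction of each pathway list and some marker genes. The 3 genes with the highest correlation to each member were also named. Not every gene behind a count was named. The contrasts within one history, the differences between parity effects and the GC box were chosen after values were seen. Alternatives were eBayes without a trend, quantile normalization, array weights and the mean of all probe sets. Another left out genes under a mean of 6.0 (12057 kept). Samples were also grouped into random blocks by history and number, or into fixed blocks by number alone. Whether samples sharing a number came from the same mice is not known. Further alternatives fitted only the samples compared, or left out each sample in turn. The nulliparous samples numbered replicate 1 or 3 were also left out as sets. No other set of same-numbered samples was left out.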

Additional observations from a re-analysis of the deposited data

Results flagged for a closer look

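The parity difference of Lgr5 was not the same in all subpopulations by a test of the difference itself (moderated F over the 6 subpopulations, adjusted p = 1.9e-04). Parous minus nulliparous was -1.58 in basal CD49f-high cells, -0.09 in basal CD49f-low, 0.37 in luminal Sca1-negative and -0.32 in stromal cells, and the first of these had 2 parous samples of 2000 cells each. Groups of 2 or 3 samples were not screened for outlying samples.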

How the results depend on the processing

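The 8 basal over luminal calls among the members held in all 33 alternatives, and no called difference changed sign. Fitting only the samples compared left 0 members called for CD49f-high against CD49f-low and for parity in total epithelial, luminal Sca1-negative, basal CD49f-low and basal CD49f-high cells. Members called for parity in CD49f-low cells were 2, Znrf3 joining Lgr6, with quantile normalization, array weights or dim genes left out. For parity in CD49f-high cells 1 member, Lgr5, stayed called with array weights and without the nulliparous samples numbered replicate 3. Without those samples 0 members were called in total epithelial cells. The test of parity differences among subpopulations called 3 members (Lgr5, Lgr6 and Lgr4) with array weights and with dim genes left out. It called the same 3 with history and replicate number as a random block, and 2 without the nulliparous samples numbered replicate 1. Leaving out 1 sample gave 1 to 2 members for CD49f-high against CD49f-low, 8 to 8 for basal against luminal, 3 to 4 for Sca1-positive against Sca1-negative, 5 to 6 for stromal against total epithelial, 2 to 3 for the mean parity difference, 1 to 4 for differences among subpopulations, 1 to 3 in CD49f-high and 0 to 1 in CD49f-low, Sca1-negative and total epithelial cells, and 11 to 14 called neighbour pairs. In Sca1-positive and stromal cells it gave 0 to 0. The causes of these changes were not tested. Leaving out dim genes removed Lef1, and the test among subpopulations was not run on compared samples alone, since it uses all of them.

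Samples with the same replicate number deviated together weakly: the median correlation of their deviations was 0.12 between nulliparous subpopulations, 0.08 between parous ones and 0.07 between parous and nulliparous samples of a subpopulation, against -0.04 to -0.06 for different numbers. A correlation over 0.1 was reached by 4 of 17 same-numbered parity pairs, 28 of 45 nulliparous and 15 of 40 parous pairs of subpopulations, and by 0 pairs of different numbers. Deviations from a group mean cancel within the group, so low values for different numbers are partly built in and are no separate background. The labels do not say whether a number marks the same mice across subpopulations. Samples were not paired by number, so the main fit treated samples with the same number as independent. With the replicate number as a block, 2 members were called for parity in CD49f-low cells (Lgr6 and Znrf3), 1 in CD49f-high cells (Lgr5) and 2 for differences among subpopulations (Lgr5 and Lgr4).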
